A study of Mus musculus with 4 samples.

Results

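The metallothionein genes Mt1 and Mt2, the zinc-sensing transcription factor gene Mtf1 and the zinc transporter genes Slc30a1 and Slc39a14 were followed in LPS-stimulated mouse macrophages with and without morpholinos against Regnase-1. The 5 genes were chosen by symbol, and all 5 have a row in the table of 11111 genes. RNA sequencing of poly(A) RNA covered 4 libraries of bone marrow-derived macrophages from C57BL/6 mice, grown for 7 days with fresh medium on day 4. The control group received a control morpholino (Ctrl MO) and the other group the morpholinos MO1 and MO2 against Regnase-1 (Reg1-MOs), each at 2 µM with the delivery peptide Endoporter at 6 µl/ml for 24 hours. Both groups were then given LPS, a bacterial cell wall component, at 10 ng/ml for 4 hours, so no library shows unstimulated cells. Each group had 2 libraries, with 23369753 to 25213695 reads per library in the table. The labels do not say whether the 2 libraries of a group came from separate mice or cultures, so the p-values cover the spread among these 4 libraries alone, and that spread may be technical. In the table the 2 columns of the Reg1-MOs group carry the names MO1 and MO2, which are also those of the morpholinos, and the labels leave it unclear whether a library received 1 of them or both.

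Metallothioneins are small cysteine-rich proteins that bind zinc and copper and buffer their free levels in the cell. When free zinc rises, the zinc finger protein encoded by Mtf1 binds metal response elements in the promoters of Mt1, Mt2 and Slc30a1 and raises their transcription. Slc30a1 encodes ZnT1, which exports zinc across the plasma membrane, and Slc39a14 encodes ZIP14, which imports zinc, manganese and non-haem iron. In macrophages, metallothioneins and zinc transporters respond to LPS, to cytokines, to glucocorticoids and to oxidative stress as well as to metal. Regnase-1 cleaves many inflammatory transcripts as well as its own, and the morpholinos were designed to shield the latter from this cleavage.

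Mt1 and Mt2 lie side by side on chromosome 8 of mouse build GRCm38 (mm10), both on the plus strand, in the GENCODE M21 annotation. Mt2 spans positions 94172664 to 94173568 and Mt1 positions 94179082 to 94180327, with 5513 bases between them. Stretches before their annotated starts are shown beside that of Slc30a1, because these 3 genes are known targets of the factor encoded by Mtf1. Transcripts of Mt1 and Mt2 fell with Reg1-MOs, while that of Slc30a1 did not pass the test. The sequences come from RefSeq on GRCm38.p6, whose table matched 4 of the 5 members. Each was printed 5′ to 3′ on the plus strand and ends before the first transcript start that either RefSeq or GENCODE gives for the gene. Capitals mark the core of the metal response element, searched on both strands as TGCACNC and TGCGCNC. Printed positions are chr8:94178839-94179081 for Mt1, chr8:94172368-94172617 for Mt2 and chr1:191906531-191906766 for Slc30a1.
Mt1: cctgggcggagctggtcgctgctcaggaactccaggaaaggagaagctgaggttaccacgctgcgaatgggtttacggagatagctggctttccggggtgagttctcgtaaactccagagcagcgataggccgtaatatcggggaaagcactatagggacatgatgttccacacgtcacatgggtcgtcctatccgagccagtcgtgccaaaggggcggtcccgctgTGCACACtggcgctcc
Mt2: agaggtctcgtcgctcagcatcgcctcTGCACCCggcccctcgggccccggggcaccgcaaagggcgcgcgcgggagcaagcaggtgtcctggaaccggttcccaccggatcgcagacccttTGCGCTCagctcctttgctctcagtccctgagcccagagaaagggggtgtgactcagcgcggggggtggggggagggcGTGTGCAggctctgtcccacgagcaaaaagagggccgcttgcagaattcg
Slc30a1: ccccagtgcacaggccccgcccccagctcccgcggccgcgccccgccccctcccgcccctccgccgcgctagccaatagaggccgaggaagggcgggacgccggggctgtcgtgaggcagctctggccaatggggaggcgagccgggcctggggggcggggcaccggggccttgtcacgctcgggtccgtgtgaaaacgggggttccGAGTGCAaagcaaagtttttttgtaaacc
In the full windows of 300 bases, from 250 before to 50 after the RefSeq start, the core occurred 3 times for Mt1, 4 times for Mt2, 2 times for Slc30a1 and 0 times for Mtf1. Matches that reach past the printed stretch, 2 for Mt1 and 1 each for Mt2 and Slc30a1, are not shown. The Mtf1 window, 124802299 to 124802598 on chromosome 4, lies wholly after the GENCODE start of that gene at 124802104. Its counts therefore do not cover the bases before that start. Of 32817 promoter windows of this length, 25.7% held at least 1 such core, 7.12% at least 2, 1.97% at least 3 and 0.518% at least 4. Among the 11411 windows of genes in the table, to which the members belong, the shares were higher, at 35.5%, 11.2%, 3.14% and 0.833%. The core of the antioxidant response element was searched as TGACNNNGC on either strand. It occurred 1 time each in the Mt2 and Slc30a1 windows and 0 times in those of Mt1 and Mtf1. At least 1 copy was found in 12.4% of all windows and in 14.5% of those of genes in the table. No copy of either motif overlapped another of its kind or of the other kind in these windows. These are matches of letters, not measured binding sites. For Mt1, 2 of the 3 metal response element cores began 2 and 20 bases after the RefSeq start. Bases beyond the windows were not searched, so the counts need not cover a whole promoter. The 0 antioxidant cores for Mt1 hold only for its window, which ends at position 94179138. They do not show that the Mt1 promoter lacks this core. Which transcript start these cells use was not tested.

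With Reg1-MOs, both metallothionein transcripts fell, Mt1 by 1.48-fold and Mt2 by 1.62-fold, while Mtf1, Slc30a1 and Slc39a14 did not pass the test. The test was limma's moderated test, fitted to the log2 values as deposited for all 11111 genes, with Benjamini-Hochberg adjustment and a threshold of 0.05. Thus 2 of the 5 genes fell and 0 rose, against a background of 6.03% of all genes falling and 6.22% rising (12.2% called in all). The targeted gene, Zc3h12a, which encodes Regnase-1, was higher with Reg1-MOs (7799 and 6753 reads) than with Ctrl MO (3407 and 3572 reads).

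**Figure D1:**
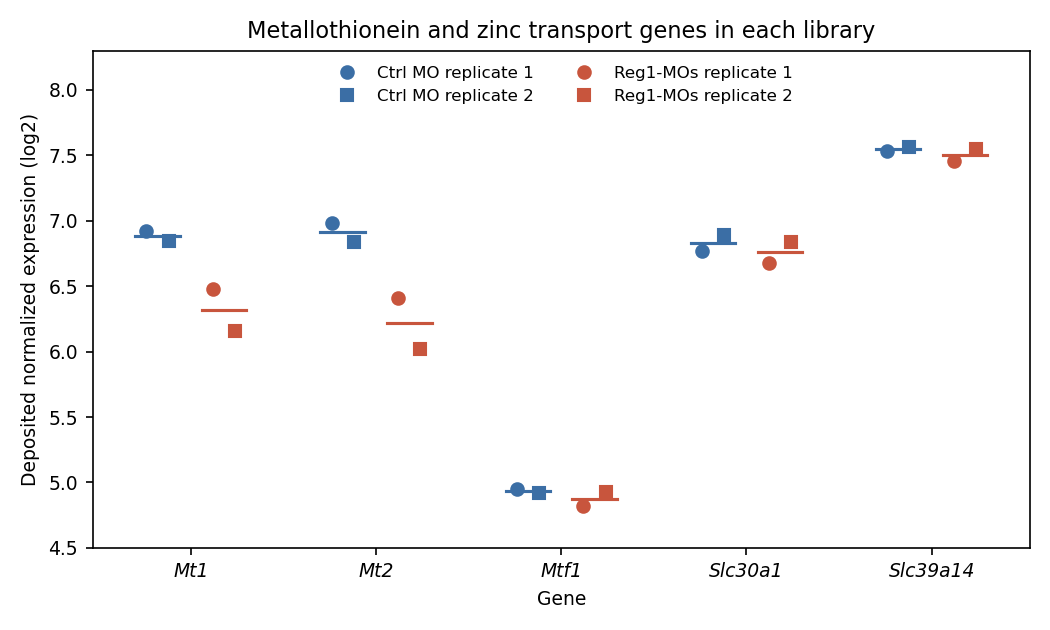
Deposited normalized expression (log2) of the 5 genes in each of the 4 libraries. Points are single libraries and horizontal lines the means of the 2 libraries of a group; for Mt1 and Mt2 both Reg1-MOs libraries lie below both Ctrl MO libraries, and for the other 3 genes the groups overlap.

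Mt1 (ENSMUSG00000031765) encodes the metallothionein-1 protein and had 2312 and 2189 reads with Ctrl MO against 1724 and 1269 with Reg1-MOs. Its deposited log2 values were 6.92 and 6.84 with Ctrl MO against 6.48 and 6.16 with Reg1-MOs. Both Reg1-MOs libraries lay below both Ctrl MO libraries, as they did for 31.8% of all genes, and the lowest value was that of Reg1-MOs replicate 2. The log2 fold change was -0.57 (SE 0.11, 95% interval -0.82 to -0.31, limma adjusted p = 0.0167). On the linear scale the Reg1-MOs level was between 0.567 and 0.805 of the Ctrl MO level.

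Mt2 (ENSMUSG00000031762) encodes the second of the broadly expressed metallothioneins and had 2410 and 2184 reads with Ctrl MO against 1647 and 1154 with Reg1-MOs. The deposited log2 values were 6.98 and 6.84 against 6.41 and 6.02. Again the groups were separate and Reg1-MOs replicate 2 was lowest. The log2 fold change was -0.70 (SE 0.13, 95% interval -0.99 to -0.40, limma adjusted p = 0.0143). A lower log2 fold change than that of Mt2 was found for 3.64% of all genes, and a lower one than that of Mt1 for 5.57%.

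For both genes the 2 Reg1-MOs libraries lay further apart than the 2 Ctrl MO libraries. The gap between replicates on the log2 scale was 0.08 with Ctrl MO against 0.32 with Reg1-MOs for Mt1, and 0.14 and 0.39 for Mt2. Without any 1 library, both genes stayed past the threshold, with log2 fold changes of -0.72 to -0.41 for Mt1 and -0.89 to -0.50 for Mt2. The smallest falls were those without Reg1-MOs replicate 2. When the variances were not modelled on the mean expression, neither gene passed (limma adjusted p = 0.107 for Mt1 and 0.102 for Mt2).

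The metallothioneins moved together within each library. Mt2 minus Mt1, as a difference of deposited log2 values, was 0.06 and -0.0033 with Ctrl MO against -0.07 and -0.14 with Reg1-MOs. The groups did not overlap in this difference, and Mt2 was the lower of the pair in both Reg1-MOs libraries. Its change between groups was -0.13 (exact permutation p = 0.333, two-sided, the smallest that 2 against 2 libraries allow). The Mt1 and Mt2 mRNAs hold 475 and 437 stretches of 75 bases. Read in the same direction, 0 of these occurred in an annotated transcript of another gene. The opposite strand and copies outside annotated transcripts were not searched, so antisense overlaps are not covered. The Gm45774 transcript is annotated antisense to Mt2 over 749 bases and has no row in the table used here. Whether reads were assigned by strand is not given in the sources used here.

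Markers of stromal cells and fibroblasts were lower in the same libraries as the metallothioneins, where 6.03% of all genes fell and 6.22% rose. Of 12 such markers 9 had a row, and all 9 fell, among them the collagen genes Col1a1 (-1.78), Col1a2 (-1.63) and Col3a1 (-1.36) on the log2 scale. Their summed linear level was 302 to 318 with Ctrl MO and 116 to 136 with Reg1-MOs, and Lum, Pdgfra and Thy1 have no row in the table used here. The part of these cells in the fall of Mt1 and Mt2 was not tested. In bulk RNA, fewer cells of a type and less RNA per cell cannot be told apart. Of 10 neutrophil markers 9 had a row and 0 passed limma's test (2 with an unadjusted p under 0.05, 0 passed with voom weights), with a summed level of 417 to 473 with Ctrl MO and 337 to 439 with Reg1-MOs, and Ly6g had no row. The macrophage markers were present for 8 of 8 genes, and their summed level was lower in both Reg1-MOs libraries (17903 and 17953) than in both Ctrl MO libraries (19772 and 19756). That sum leans on Lyz2, which had the most reads of the 8 (134430 to 174996 per library). Of these markers, Itgam (-0.67) and Lyz2 (-0.27) fell, Cd68 (0.34) rose and 5 did not pass. Single markers of other cells were also lower. Itgax, the gene of the integrin CD11c that dendritic cells and some macrophages carry, had 3644 and 3850 reads with Ctrl MO against 1328 and 1168 with Reg1-MOs and fell by 1.55 on the log2 scale (limma adjusted p = 9.29e-05). Kit, a mast cell marker, had 70 and 71 reads against 44 and 42 and fell by 0.67 (limma adjusted p = 0.0462). Itgax passed under all 12 alternatives, whereas the calls of Kit and Lyz2 ended without any 1 of the 4 libraries (limma adjusted p = 0.0701 to 0.217 and 0.0532 to 0.355). The call of Cd68 ended without either Ctrl MO library or Reg1-MOs replicate 1 (0.0796 to 0.21), and those of Itgam, Lyz2 and Cd68 without a variance trend (0.0585 to 0.134). The lymphocyte marker Cd4 did not pass (log2 fold change -0.18, limma adjusted p = 0.312). The part of these shifts in the fall of Mt1 and Mt2 was not tested either.

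Mtf1 (ENSMUSG00000028890; chromosome 4, 124802104 to 124849800, plus strand) had 589 and 577 reads in the Ctrl MO libraries against 548 and 540 in the Reg1-MOs libraries. Its log2 values were 4.95 and 4.92 against 4.82 and 4.93, and the groups overlapped. The log2 fold change was -0.06 (SE 0.09, limma adjusted p = 0.684), with a 95% interval of 0.832 to 1.10 for the ratio of Reg1-MOs to Ctrl MO. The 3′ end of Mtf1 overlaps 1110065P20Rik on the other strand over 721 bases. That gene had 75 to 111 reads per library and a log2 fold change of -0.10 (limma adjusted p = 0.742).

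Slc30a1 (ENSMUSG00000037434; chromosome 1, 191906767 to 191913247, plus strand), the gene of the plasma membrane zinc exporter, had 2085 and 2257 reads in the Ctrl MO libraries against 1984 and 2036 in the Reg1-MOs libraries. The log2 values were 6.77 and 6.89 against 6.68 and 6.84, so the groups overlapped. The log2 fold change was -0.07 (SE 0.08, limma adjusted p = 0.618), and the interval for the ratio ran from 0.831 to 1.09. The estimate stood at 0.01 without Reg1-MOs replicate 1. The transcript of 1700034H15Rik is annotated antisense over 761 bases at the start of Slc30a1 and has no row in the table used here.

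Slc39a14 (ENSMUSG00000022094; chromosome 14, 70303469 to 70351425, minus strand), the gene of the importer ZIP14, had 3540 and 3601 reads in the Ctrl MO libraries against 3412 and 3322 in the Reg1-MOs libraries. Its log2 values were 7.54 and 7.56 against 7.46 and 7.55, with overlapping groups. The log2 fold change was -0.05 (SE 0.07, limma adjusted p = 0.693), and the interval for the ratio was 0.869 to 1.08. The intervals of the ratio for Mtf1, Slc30a1 and Slc39a14 lay wholly above those for Mt1 and Mt2, whose upper bounds were 0.805 and 0.758.

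Set against the other members within a library, the metallothioneins were lower in both Reg1-MOs libraries. The mean log2 value of Mt1 and Mt2 minus that of Slc30a1 was 0.18 and -0.05 with Ctrl MO against -0.24 and -0.75 with Reg1-MOs. Minus Mtf1 it was 2.00 and 1.92 against 1.62 and 1.16. Minus Slc39a14 it was -0.58 and -0.72 against -1.02 and -1.46. None of these 3 differences overlapped between groups, and they changed by -0.56, -0.57 and -0.58. An exact permutation test gave p = 0.333 for each, two-sided, which is the smallest that this design allows.

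Per length of mRNA, the metallothioneins were the most abundant of the 5 genes in every library. Deposited values on the linear scale, divided by the length of the longest transcript with a consensus coding sequence, were 221 and 209 per kilobase for Mt1 with Ctrl MO against 162 and 130 with Reg1-MOs. For Mt2 they were 247 and 224 against 166 and 127. Mt2 was above Mt1 in both Ctrl MO libraries, and the values of the pair overlapped with Reg1-MOs. Levels per kilobase followed at 35.8 to 38.4 for Slc39a14, 19.5 to 22.6 for Slc30a1 and 3.71 to 4.05 for Mtf1, with no overlap between these 3 genes. The mRNA lengths used were 549 and 511 bases for Mt1 and Mt2 against 4926 for Slc39a14, 5244 for Slc30a1 and 7631 for Mtf1.

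**Figure D2:**
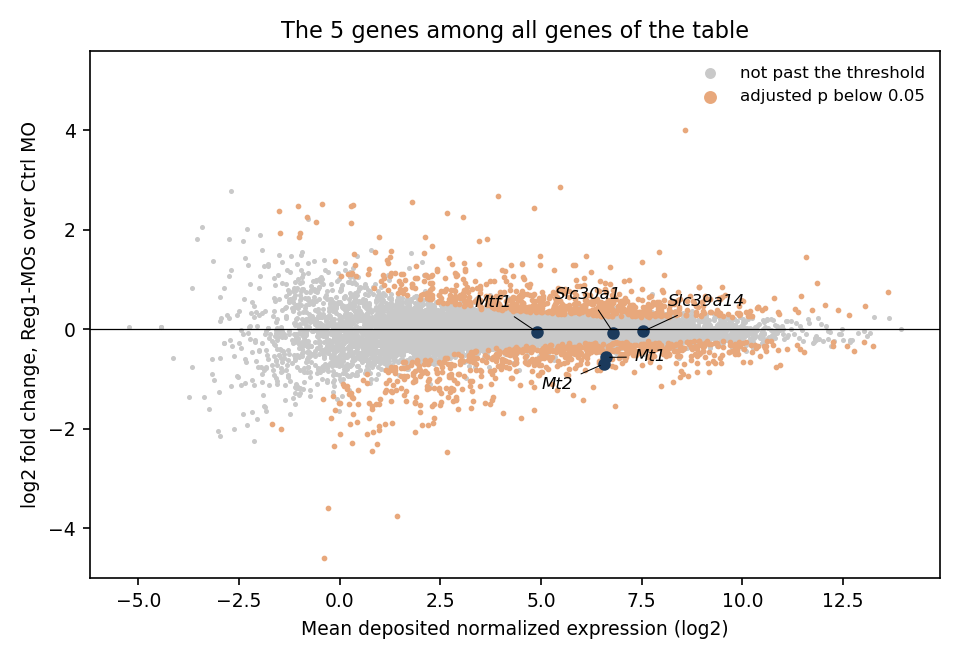
Log2 fold change (Reg1-MOs over Ctrl MO) against the mean deposited log2 expression for all 11111 genes. Genes past the threshold are orange and the 5 members dark blue; Mt1 and Mt2 lie among the genes that fell, and Mtf1, Slc30a1 and Slc39a14 lie near 0.

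The genes around the metallothionein pair gave few values. Within 100000 bases of Mt1 and Mt2 the annotation lists 10 genes, of which 6 are protein-coding and 4 have a row in the table, Mt1 and Mt2 among them. Nup93, a nuclear pore gene, had 680 to 764 reads and a log2 fold change of 0.03 (95% interval -0.16 to 0.22, limma adjusted p = 0.861), and stood at -0.0039 without Ctrl MO replicate 2. Bbs2, a gene of the cilium complex BBSome, had 26 to 45 reads and a log2 fold change of -0.23 (95% interval -0.85 to 0.40, limma adjusted p = 0.615), and stood at 0.08 without Reg1-MOs replicate 2. The other metallothionein genes of the cluster, Mt3 and Mt4, were not analysed here.

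Most genes of the wider zinc transporter families did not pass, like most genes of the table (12.2% called, 6.22% rising and 6.03% falling). Of 18 SLC30 and SLC39 genes in the table, Slc30a1 and Slc39a14 included, 1 rose, 2 fell and 15 did not pass, with a median log2 fold change of -0.07 against -0.03 over all genes. Among the 5 other SLC30 exporters, 0 passed in limma, 0 had an unadjusted p under 0.05 and 0 passed with voom weights, and the log2 fold changes ran from -0.09 to 0.11. The smallest p in that family was that of Slc30a9, a mitochondrial zinc transporter, with 1093 and 1074 reads against 983 and 993 (log2 fold change -0.09, limma adjusted p = 0.49).

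Among the 11 other SLC39 importers, 1 rose and 2 fell, against 6.22% and 6.03% of all genes. Slc39a6, encoding the plasma membrane importer ZIP6, had 768 and 745 reads in the Ctrl MO libraries against 1255 and 1245 in the Reg1-MOs libraries. Its groups were far apart and its replicates close together. The log2 fold change was 0.76 (SE 0.08, limma adjusted p = 0.00211), and it passed under all 12 alternatives tried. Slc39a8, encoding ZIP8, an importer of zinc, manganese and cadmium that NF-kappaB induces, had 373 and 320 reads against 229 and 227. It fell by 0.56 on the log2 scale (SE 0.12, limma adjusted p = 0.0233). Slc39a11, encoding ZIP11, had 491 and 457 reads against 370 and 331 and fell by 0.40 (SE 0.09, limma adjusted p = 0.0348).

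The calls of the 2 falling importers ended when single libraries were left out, while their log2 fold changes stayed at -0.67 to -0.45 for Slc39a8 and -0.45 to -0.35 for Slc39a11. Those of Mt1 and Mt2 ranged at least as widely. Why the calls of Mt1 and Mt2 held without single libraries was not tested. The call of Slc39a8 ended without Ctrl MO replicate 1 (limma adjusted p = 0.139), without Reg1-MOs replicate 1 (0.117) or Reg1-MOs replicate 2 (0.0591), and that of Slc39a11 without any 1 of the 4 libraries (0.0741 to 0.25). Both also ended without a variance trend (0.0835 and 0.0871). The number of importers called was 2 with Ctrl MO replicate 2 left out and 1, Slc39a6, with any 1 of the other libraries left out or without a variance trend. Slc39a10, encoding an importer that the factor of Mtf1 is known to repress, had 446 and 452 reads against 425 and 388 (log2 fold change -0.11, limma adjusted p = 0.47).

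**Figure D3:**
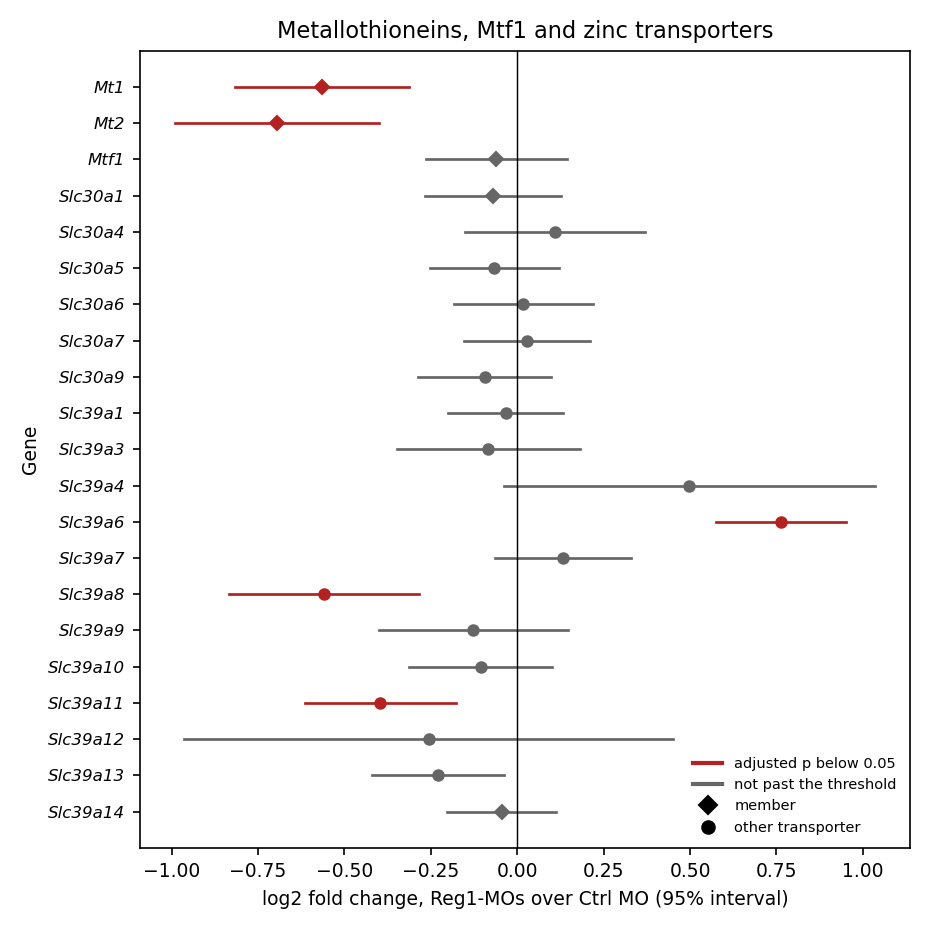
Log2 fold change (Reg1-MOs over Ctrl MO) with its 95% interval from limma for the metallothioneins, Mtf1 and every SLC30 and SLC39 gene in the table. Red marks genes past the threshold and diamonds the 5 members; Mt1, Mt2, Slc39a8 and Slc39a11 were lower, Slc39a6 was higher, and the other intervals are drawn in grey.

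Genes that handle other metals moved in both directions beside the metallothioneins. Over all genes, 6.22% rose and 6.03% fell. Of 9 genes of manganese and non-haem iron transport, 3 rose and 2 fell, with a median log2 fold change of 0.01. The iron exporter gene Slc40a1 (2.44), the ferric reductase gene Steap3 (0.57) and the phagosomal metal exporter gene Slc11a1 (0.44) rose, and the metalloreductase gene Steap4 (-1.47) and Slc39a8 fell. Of 12 genes of copper handling, 2 rose and 1 fell, with a median of 0.06. The gene of the copper-carrying ferroxidase ceruloplasmin, Cp, fell by 0.85 (11486 and 12692 reads against 6559 and 6444, limma adjusted p = 0.00121). Cox11 (0.61), a copper chaperone gene of cytochrome oxidase, and Commd1 (0.38), a regulator of copper export and of NF-kappaB, rose. With no variance trend in the fit, Slc40a1 alone passed among the manganese and iron genes and Cp alone among the copper genes. Without Reg1-MOs replicate 1 the copper count was 1. The calls of Cox11 ended without either Reg1-MOs library (limma adjusted p = 0.058 and 0.0603) and that of Commd1 without any 1 of the 4 libraries (0.0861 to 0.369).

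Lists of genes that answer to other known inducers of metallothionein transcription were also counted. The shares over all genes were 6.22% rising and 6.03% falling. Of 10 NRF2-dependent genes, which answer oxidative and electrophilic stress, 8 rose and 0 fell, with a median log2 fold change of 0.74. Hmox1 (4.01), Me1 (1.86), Gclm (1.20) and Txnrd1 (0.85) were the 4 with the smallest p. Of 10 glucocorticoid-responsive genes, Cdkn1c (2.86) and Sgk1 (1.15) rose, 0 fell and 8 did not pass, and the median was 0.13. Of 9 genes listed as responsive to interleukin-6 and STAT3, 0 rose, 2 fell and 7 did not pass. Their median was -0.06 against -0.03 over all genes. This list also holds the genes of the receptor chains, Il6ra and Il6st, and of STAT3 itself. The lists were not tested against each other. The feedback inhibitor gene Socs3 had 33078 and 32516 reads against 26694 and 22442 and fell by 0.38 (limma adjusted p = 0.0128). The receptor gene Il6ra had 184 and 200 reads against 104 and 128 and fell by 0.69 (limma adjusted p = 0.036).

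The 2 calls of the interleukin-6 list depended on single libraries, and both ended when no variance trend was fitted (limma adjusted p = 0.0973 for Socs3 and 0.112 for Il6ra). When Ctrl MO replicate 2 was left out 0 remained, and when Ctrl MO replicate 1 or the first Reg1-MOs library was left out 1 passed. The Socs3 call ended without either control (limma adjusted p = 0.0989 and 0.0784) and that of Il6ra without either Ctrl MO replicate 2 (0.0721) or the first Reg1-MOs library (0.115). The zinc-binding calgranulin genes S100a8 and S100a9, which neutrophils also express, did not pass in limma (1 with an unadjusted p under 0.05, 0 passed with voom weights). S100a8 had the smaller p, with 1106 and 1311 reads against 1091 and 824 (log2 fold change -0.31, limma adjusted p = 0.143).

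**Figure D4:**
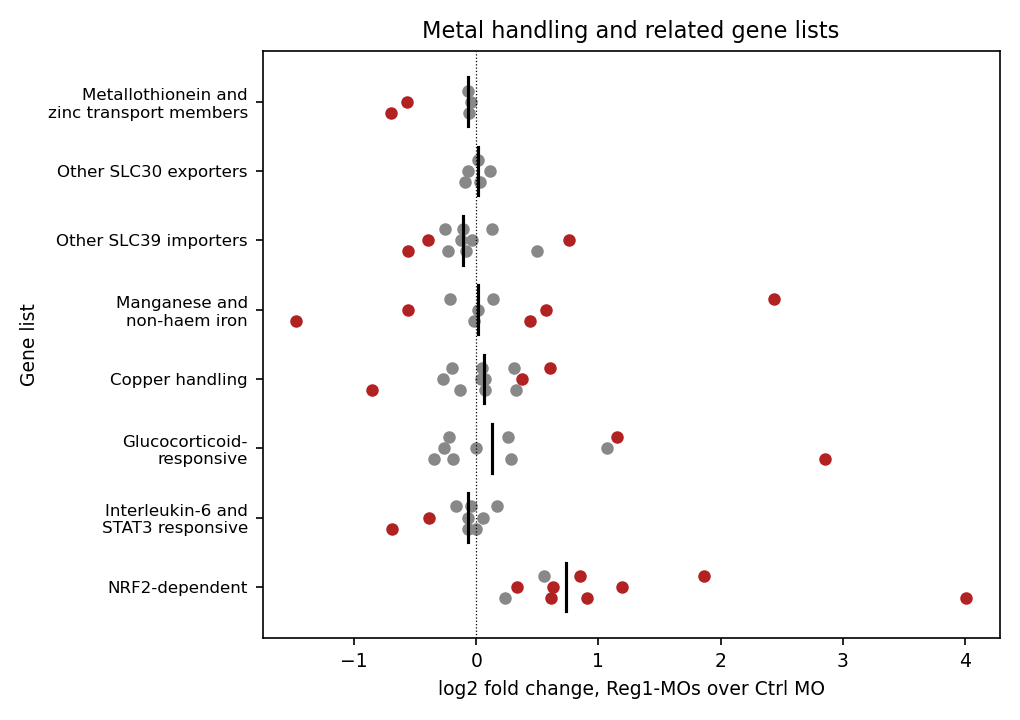
Log2 fold change (Reg1-MOs over Ctrl MO) of each measured gene in the 5 members and 7 lists of metal handling or related genes. Each point is a gene, red where past the threshold, and the vertical bar is the list's median, which lies between -0.11 and 0.13 for all lists shown except the NRF2-dependent genes at 0.74.

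The genes with the most similar pattern to the metallothioneins were found by the distance, over the 4 libraries, between log2 values centred on the Ctrl MO mean and the mean of Mt1 and Mt2 treated in the same way. Among 9317 other genes that averaged at least 50 reads, the nearest included Nxn, Lck, Hes6 and Nckap5l, at distances of 0.0755 to 0.102 on the log2 scale. Mt1 and Mt2 each stood at 0.0977 from their own mean. Nxn encodes a thioredoxin-family oxidoreductase, Lck a Src-family tyrosine kinase best known from T cells and Hes6 a transcription factor of the Hes family. Lck, with 382 and 378 reads against 288 and 206, was the best covered of these. Lck and Hes6 passed the test, but not without a variance trend (limma adjusted p = 0.108 and 0.101). Nxn (54 to 100 reads per library, limma adjusted p = 0.0653) and Nckap5l (42 to 79 reads, 0.1) did not pass. Of the zinc transporters, Slc39a8 ranked 207 and Slc39a11 ranked 284 in the same order, and Mtf1, Slc30a1 and Slc39a14 ranked 3854 to 4133. Slc39a6, the importer gene that rose, ranked 9185, at a distance of 2.00. This likeness was chosen on the same values as the fold changes and is a description.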

How the data were processed

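Poly(A) RNA libraries (NEBNext Ultra II Directional, NextSeq, per the labels' protocols) were processed with cutadapt, FastQC and HISAT2 1.6.3 on mm10, per the submitters' processing notes; how reads were counted, filtered by gene and scaled, and whether by strand, is not given in the sources used here. Normalized log2 values were deposited by the authors in 1 table. Turned back to the linear scale, the values of a library rise in equal steps from an offset of 0.5; for 100% of genes they lay within 0.01 of a whole number of steps, which gave the reads printed here (median 404 to 437 per gene and library); counting error limits the precision of low genes. Groups came from the sample titles. The test was limma 3.58.1 in R 4.3.3 with a mean-variance trend on the deposited log2 values, unfiltered, two-sided, group as the only term, adjusted over all 11111 genes; it was tested on simulated data. Intervals are moderated 95% intervals. No count model was run.

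The members and lists were chosen with earlier results of these data known. The genes named are the 5 members, Zc3h12a, up to 4 called genes per pathway list (otherwise the one with the smallest p) and the 5 genes nearest in pattern among those with a mean of at least 50 reads, of which 1 is not reported here. Other genes named, such as the neighbours, overlapping genes, marker genes and Slc39a10, were chosen after their values were seen. Alternatives tried were no variance trend, voom weights, quantile, equal-total and median-of-ratios scaling, an offset of 8 reads, a minimum mean of 50 reads, a replicate block and leaving out each library. The dendritic cell, lymphocyte and mast cell lists had 1 gene each in the table, and the erythroid and mitochondrial lists had none.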

Additional observations from a re-analysis of the deposited data

How the results depend on the processing

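Mt1 and Mt2 kept their direction under all 12 alternatives and stayed past the threshold under 11 of them. The exception was the fit without a variance trend (-0.57, limma adjusted p = 0.107, and -0.70, adjusted p = 0.102), which left 0 members past the threshold, 195 genes that rose and 182 that fell over the table, and called 1 SLC39 importer, 1 copper gene, 1 manganese and iron gene and 0 interleukin-6 genes; the cause was not tested. With 1 library left out, log2 fold changes were -0.72 to -0.41 for Mt1, -0.89 to -0.50 for Mt2 and -0.15 to 0.010 for Slc30a1, whose sign turned without Reg1-MOs replicate 1. Among the neighbours, Bbs2 ranged from -0.54 to 0.084 and Nup93 from -0.0039 to 0.056. Counts over the table ranged from 249 to 530 rises and 258 to 860 falls, SLC39 importers from 1 to 2, copper genes from 1 to 3 and interleukin-6 genes from 0 to 2; fewer libraries entered these fits. The lone library left in a group was assumed to vary like those of the other group. Mtf1 and Slc39a14 kept their sign and did not pass under any alternative. The scalings moved the median of all genes by less than 0.1.

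The titles number replicates 1 and 2 in both groups, but no label says that a number marks a shared culture. Deviations of same-numbered libraries correlated at 0.314 across 9476 genes, which are not independent replicates. With a replicate block, 1532 genes rose and 1891 fell, 6 copper genes, 4 interleukin-6 genes and 1 calgranulin gene passed, and Mt1 (-0.57) and Mt2 (-0.70) passed.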
